A study of Homo sapiens with 6 samples.

Results

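The genes of MHC class I antigen presentation were followed in A549 cells, an established human lung adenocarcinoma line. The members were 9 of the 58302 gene rows of the deposited table, found by their symbols: the heavy chains HLA-B, HLA-C, HLA-E and HLA-F, the light chain B2M, the peptide transporter subunits TAP1 and TAP2, the loading chaperone TAPBP and the transcriptional activator NLRC5. Each symbol had 1 row, and all 9 passed the filter on low counts. They were chosen by symbol with the count differences of this same contrast in view, so the rule used the values described here. For that reason the differences are a description of these libraries, and the p-values printed with them support no claim about the set.

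RNA sequencing covered 3 libraries of A549 cells transfected with SNHG5, a long non-coding RNA that hosts small nucleolar RNAs, and 3 libraries of A549 cells transfected with vector, at passages 6 to 8 for both groups. The labels call the replicates biological and give no time after transfection. No untransfected culture was analysed here, so both groups share the exposure to transfection. CPM is a count scaled to its library's total over the genes tested and to its TMM normalization factor. In the SNHG5 row itself the groups overlapped (log2 difference 0.66, SE 0.37, edgeR adjusted p 0.746). SNHG5 stood at 153.3, 126.5 and 62.9 CPM in the libraries labelled overexpression 1, 2 and 3 and 61.0, 101.3 and 55.1 CPM in controls 1, 2 and 3. Directions are therefore between libraries as labelled.

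MHC class I molecules are heavy chains that fold with beta-2-microglobulin and carry a short peptide to the cell surface. Cytosolic peptides reach the endoplasmic reticulum through the TAP transporter, and tapasin, the product of TAPBP, holds an empty class I molecule next to TAP until a peptide binds. NLRC5 acts in the nucleus, with the RFX, CREB and NF-Y factors, at a promoter module shared by class I genes, and interferons raise most genes of the pathway. CD8 T cells read the peptide on HLA-B and HLA-C, whereas HLA-E is read by NKG2A receptors on natural killer cells.

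Libraries held 13378079 to 16999604 counts, so that a gene with 0 counts could stand at up to 0.176 to 0.224 CPM. This floor is 3 counts over the library's unscaled total and covers counting error only. Control 2 stood apart in composition, with MALAT1, a nuclear RNA, at 28.1 CPM against 118.3 to 476.1 CPM elsewhere. Ribosomal RNA genes took 1.04% to 1.14% of counts in the libraries labelled overexpression and 0.8% to 0.852% in the controls. The keratin gene KRT8, an epithelial marker, held 1265 to 2248 CPM against 2438 to 2661 CPM. Of 5 epithelial markers all had counts, with EPCAM low at 2.27 to 4.19 CPM, and the summed level was 2110 to 3430 CPM against 3540 to 4110 CPM. Of 11 leukocyte markers 9 had 0 counts in all 6 libraries, PTPRC among them, and the summed level was 4.31 to 10.1 CPM against 4 to 10.4 CPM. Endothelial markers summed to at most 0.185 CPM with CDH5 and KDR at 0, and fibroblast markers to 5.58 to 24.7 CPM against 11.8 to 22.9 CPM. The part of rRNA share and of KRT8 in the differences below was not tested.

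Of the 9 genes, 8 had every library labelled overexpression below every control, beside 7.52% of the 15631 genes tested. B2M was the exception. The median log2 difference of the 9 genes was -1.73, against 0.01 over all genes tested. In edgeR's quasi-likelihood test adjusted over all genes, HLA-B and HLA-E were called lower and none higher, beside 0.102% of genes called lower and 0.0256% higher, and nothing is read from that count because this contrast was used to name the genes. With the replicate number as a block, HLA-B, HLA-E, TAP2 and NLRC5 were called, beside 0.441% of all genes. In bulk RNA, fewer cells with a transcript and less of it per cell cannot be told apart.

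**Figure D1:**
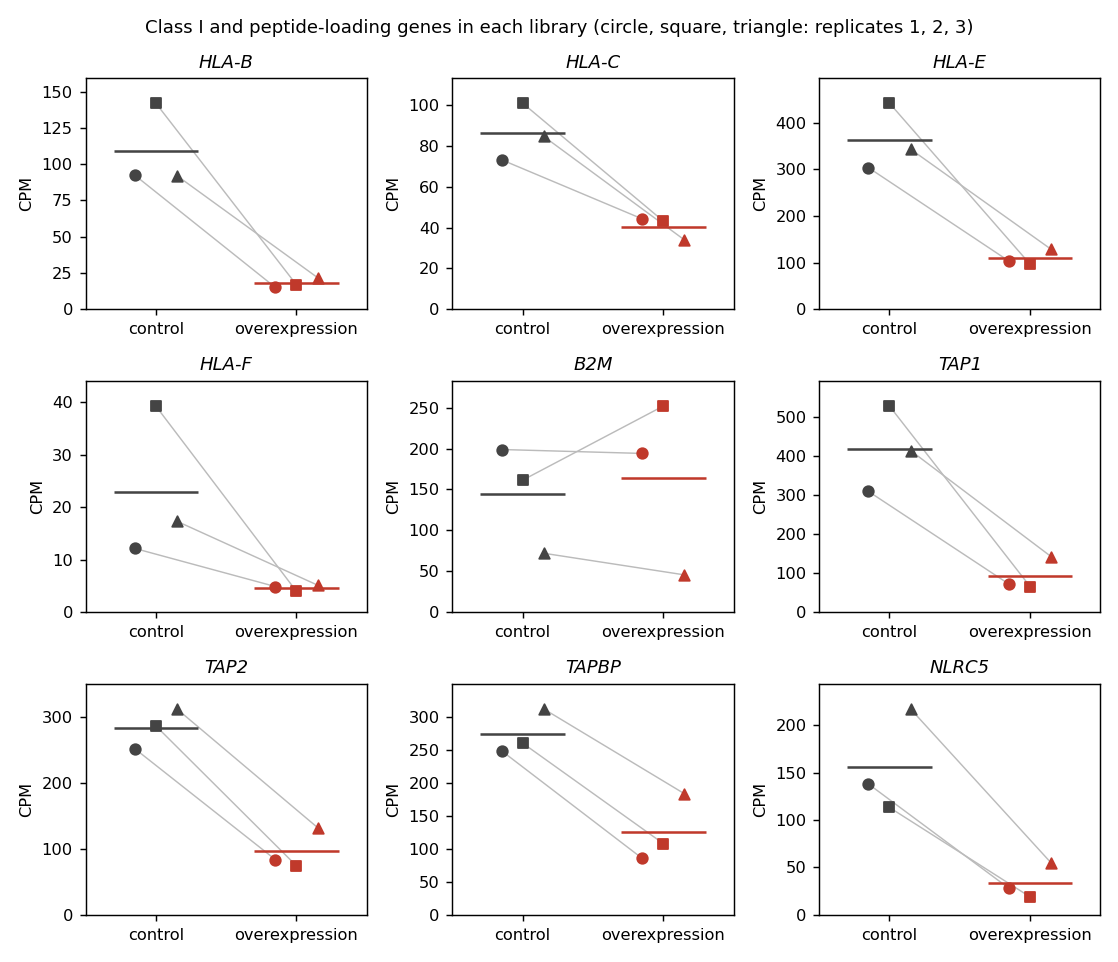
CPM (vertical axis, from 0) of the 9 genes in 3 control libraries (grey) and 3 libraries labelled overexpression (red), with horizontal lines at group means and thin lines joining same-numbered libraries. Only for B2M do the groups overlap, and there replicate 3 is the lowest library of both groups.

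The classical heavy chains HLA-B and HLA-C, neighbours on the minus strand of chromosome 6, were lower to unlike degrees. HLA-B (ENSG00000234745, GRCh38 chromosome 6, 31269491 to 31357188) stood at 14.9, 16.7 and 21.7 CPM in the libraries labelled overexpression 1, 2 and 3 and at 92.4, 142.1 and 92.1 CPM in controls 1, 2 and 3. The groups lay far apart, with control 2 the highest library. HLA-B was 6.11-fold lower (log2 difference -2.61, SE 0.26, edgeR adjusted p 0.024), the largest difference of the 9. HLA-C (ENSG00000204525, chromosome 6, 31268749 to 31272130) stood at 44.2, 43.2 and 33.9 CPM against 73.2, 101.0 and 84.7 CPM. The libraries labelled overexpression were again all below the controls, by 2.13-fold (log2 difference -1.09, SE 0.21, edgeR adjusted p 0.124). In CPM per kb of the length behind the deposited FPKM, HLA-C stood above HLA-B in each library labelled overexpression and below it in each control. With the union of annotated exons as the length this order turned in control 3, at 30.2 CPM per kb for HLA-B and 33.8 for HLA-C. The ratio of HLA-B to HLA-C counts was 0.337, 0.388 and 0.64 in the libraries labelled overexpression and 1.26, 1.41 and 1.09 in the controls.

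The promoters of the 2 classical genes show how alike they are, and where they differ. Sequences are from RefSeq on GRCh38.p14, whose promoter table holds 7 of the 9 genes, all but HLA-E and NLRC5. Each run is the 200 bases before the RefSeq start, 5′ to 3′ on the gene's strand, with the last base at -1. The windows of HLA-F, TAP1 and TAPBP lie inside the spans of the deposited rows. For these genes the RefSeq start is therefore not the 5′ end of the row that was counted. Capitals mark matches on either strand to the ISRE core (an interferon-stimulated response element: GAAA, any 2 bases, GAAA), TTCNNNGAA (an interferon-gamma activated site), the kappaB element (GGGGA, any base, TCCC), CCAAT (the Y box bound by NF-Y), TGACG (a core of the X2 box bound by CREB) and a class I response element, the last chosen after the sequences were seen.
HLA-B (chr6:31357180-31357379, minus strand): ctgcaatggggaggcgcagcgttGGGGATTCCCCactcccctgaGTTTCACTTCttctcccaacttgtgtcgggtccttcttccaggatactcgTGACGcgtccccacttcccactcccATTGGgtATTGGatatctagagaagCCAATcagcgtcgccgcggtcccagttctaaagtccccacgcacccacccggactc
HLA-C (chr6:31272093-31272292, minus strand): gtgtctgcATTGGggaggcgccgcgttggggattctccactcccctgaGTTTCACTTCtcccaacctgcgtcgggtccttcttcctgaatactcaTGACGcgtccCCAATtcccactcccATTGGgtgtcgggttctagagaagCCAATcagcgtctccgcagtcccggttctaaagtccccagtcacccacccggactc
HLA-F (chr6:29723234-29723433, plus strand): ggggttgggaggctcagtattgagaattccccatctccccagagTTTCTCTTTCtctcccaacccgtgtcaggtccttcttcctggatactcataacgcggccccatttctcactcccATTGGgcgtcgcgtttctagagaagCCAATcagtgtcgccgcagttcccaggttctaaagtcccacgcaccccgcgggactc

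HLA-B carried the kappaB letters, on both strands from -177 to -167, while the HLA-C and HLA-F windows had no match. These letters occur in 0.256% of the 35116 RefSeq windows of the same length. The class I response element stood on the minus strand at -156 to -147 in HLA-B and at -152 to -143 in HLA-C, beside 0.0826% of windows, and HLA-F had the ISRE core there at -156 to -147, beside 2.4%. TGACG lay at -106 in HLA-B and -105 in HLA-C (18.4% of windows), and CCAAT matched in all 3 windows (28% of windows). TTCNNNGAA matched in none of these 3 windows and in 5.09% of all. The matches describe letters, not bound sites.

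The non-classical heavy chains present a narrower set of peptides. HLA-E (ENSG00000204592, chromosome 6, 30489467 to 30494205, plus strand) had the highest level per kb of the 4 heavy chains in every library. It stood at 102.9, 96.3 and 128.2 CPM in the libraries labelled overexpression and 303.7, 442.0 and 343.3 CPM in the controls. No library of one group reached the other, and HLA-E was 3.33-fold lower (log2 difference -1.73, SE 0.22, edgeR adjusted p 0.048). HLA-F (ENSG00000204642, chromosome 6, 29722775 to 29738528, plus strand), which can reach the surface without peptide, had the lowest level per kb, and in CPM stood at 4.85, 3.93 and 5.12 CPM against 12.1, 39.3 and 17.3 CPM. Control 2 was the highest library, and the groups did not overlap. The log2 difference was -2.30 (SE 0.45, edgeR adjusted p 0.126), and -1.67 without control 2.

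Summed over the 4 heavy chain genes, the level was 166.9, 160.1 and 189.0 CPM in the libraries labelled overexpression and 481.5, 724.4 and 537.3 CPM in the controls. HLA-E made up 60.1% to 67.8% of these counts in every library, with no separation of the groups. The HLA-B share was 8.94%, 10.5% and 11.5% against 19.2%, 19.6% and 17.1%, and the HLA-C share 26.5%, 27% and 18% against 15.2%, 13.9% and 15.8%. The mix of heavy chain transcripts therefore differed between groups, with less HLA-B and more HLA-C in each library labelled overexpression. The class I genes are near-identical over parts of their length, and the authors' handling of reads that fit several of them is not given, so the split between them is uncertain. The annotated span of HLA-B runs over HLA-C, yet their exons share only 35 bases, 1.1% of the HLA-B exon bases. HLA-F shares 12.3% of its exon bases with HLA-F-AS1 on the opposite strand, which had 39 counts over the 6 libraries.

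B2M (ENSG00000166710, chromosome 15, 44711477 to 44718877, plus strand), the light chain that all class I heavy chains need, did not follow them. It stood at 194.1, 252.1 and 45.5 CPM in the libraries labelled overexpression and 198.9, 161.4 and 71.9 CPM in the controls. Replicate 3 was the lowest in both groups, and the spread within groups was larger than the difference between them. The log2 difference was 0.19 (SE 0.60, edgeR adjusted p 0.931), and -0.02 with the replicate block (SE 0.27, edgeR adjusted p 0.984). It ran from -0.28 without overexpression 2 to 0.63 without overexpression 3, and same-numbered pairs differed by -0.04, 0.64 and -0.66. The data do not fix a direction for B2M. Counts of the 4 heavy chains per count of B2M were 0.86, 0.635 and 4.16 in the libraries labelled overexpression and 2.42, 4.49 and 7.47 in the controls, lower in each same-numbered pair although the groups overlapped.

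The B2M promoter was searched for the same letters, and whether such matches bear on the levels was not tested. The ISRE core matched at -144 and at -138, in overlap, TGACG at -75, and CCAAT on the minus strand at -49.
B2M (chr15:44711317-44711516, plus strand): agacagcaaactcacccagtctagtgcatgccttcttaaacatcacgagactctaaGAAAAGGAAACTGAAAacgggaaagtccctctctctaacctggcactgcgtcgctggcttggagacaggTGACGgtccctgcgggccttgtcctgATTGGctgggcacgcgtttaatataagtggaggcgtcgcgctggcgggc

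TAP1 and TAP2 are the subunits of the ATP-driven peptide transporter and lie within the class II part of the MHC. TAP1 (ENSG00000168394, chromosome 6, 32845209 to 32853978, minus strand) stood at 71.2, 65.1 and 141.5 CPM in the libraries labelled overexpression and 308.6, 526.8 and 413.0 CPM in the controls. Overexpression 3 was nearest to the controls, at less than the lowest of them. TAP1 was 4.49-fold lower (log2 difference -2.17, SE 0.36, edgeR adjusted p 0.0888). TAP2 (ENSG00000204267, chromosome 6, 32821833 to 32838780, minus strand) stood at 84.0, 74.5 and 132.6 CPM against 252.5, 287.1 and 312.8 CPM. Again overexpression 3 was the highest of its group. TAP2 was 2.93-fold lower (log2 difference -1.55, SE 0.26, edgeR adjusted p 0.0897, and 0.0446 with the replicate block). Counts of TAP1 per count of TAP2 were 0.848, 0.874 and 1.07 in the libraries labelled overexpression and 1.22, 1.84 and 1.32 in the controls, so that the ratio of the transporter's subunits also separated the groups.

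TAPBP (ENSG00000231925, chromosome 6, 33299694 to 33314387, minus strand) encodes tapasin. It stood at 85.7, 108.1 and 183.7 CPM in the libraries labelled overexpression and 248.8, 260.4 and 312.2 CPM in the controls. The spread among the libraries labelled overexpression was wide, with replicate 3 at the top, and the groups did not overlap. TAPBP was 2.18-fold lower (log2 difference -1.12, SE 0.30, edgeR adjusted p 0.345). TAP1 shares 9.5% of its exon bases with PSMB8-AS1 on the opposite strand, which had 613 counts, and TAP2 shares 32.3% with the readthrough gene AL669918.1, which had 47 counts. The library kit named in the labels does not mark strand, so over shared bases reads of PSMB8-AS1 cannot be told from those of TAP1. AL669918.1 lies on the same strand as TAP2, where strand would not separate the reads.

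TAP2 and TAPBP both carry the ISRE core close to the RefSeq start, at -58 to -49 in TAP2 and in overlapping copies at -20 and -14 in TAPBP, and TAP2 has TGACG at -35.
TAP2 (chr6:32838740-32838939, minus strand): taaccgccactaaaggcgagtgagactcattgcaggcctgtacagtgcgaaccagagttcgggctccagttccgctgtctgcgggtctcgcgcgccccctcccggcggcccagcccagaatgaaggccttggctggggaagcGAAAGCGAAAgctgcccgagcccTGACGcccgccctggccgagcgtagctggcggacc
TAPBP (chr6:33314079-33314278, minus strand): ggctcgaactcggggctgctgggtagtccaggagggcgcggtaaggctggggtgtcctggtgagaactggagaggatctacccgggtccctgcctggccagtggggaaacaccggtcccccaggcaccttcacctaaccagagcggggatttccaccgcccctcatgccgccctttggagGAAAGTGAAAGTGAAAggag
TAP1 has 2 RefSeq starts, 1 of them with overlapping ISRE core matches at -134 and -128 on the minus strand and the other with TTCNNNGAA at -189. Of the 7 genes with a window, 5 matched the exact letters of the ISRE core (HLA-F, B2M, TAP1, TAP2 and TAPBP). HLA-B and HLA-C matched the class I response element instead. A window without an exact match may still hold an interferon element. B2M, whose groups overlapped, was among the 5, and the part of these letters in the differences was not tested.

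NLRC5 (ENSG00000140853, chromosome 16, 56989485 to 57083531, plus strand), the activator of class I promoters, stood at 27.97, 18.9 and 54.7 CPM in the libraries labelled overexpression and 138.0, 113.2 and 217.0 CPM in the controls. Replicate 3 was the highest library of both groups. NLRC5 was 4.60-fold lower (log2 difference -2.20, SE 0.43, edgeR adjusted p 0.126). Same-numbered pairs differed by -2.30, -2.57 and -1.99, and with the replicate block the SE was 0.20 and the edgeR adjusted p 0.0284. Across the 9 genes, 8 were lower in 3 of 3 pairs, beside 17.7% of all genes tested.

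**Figure D2:**
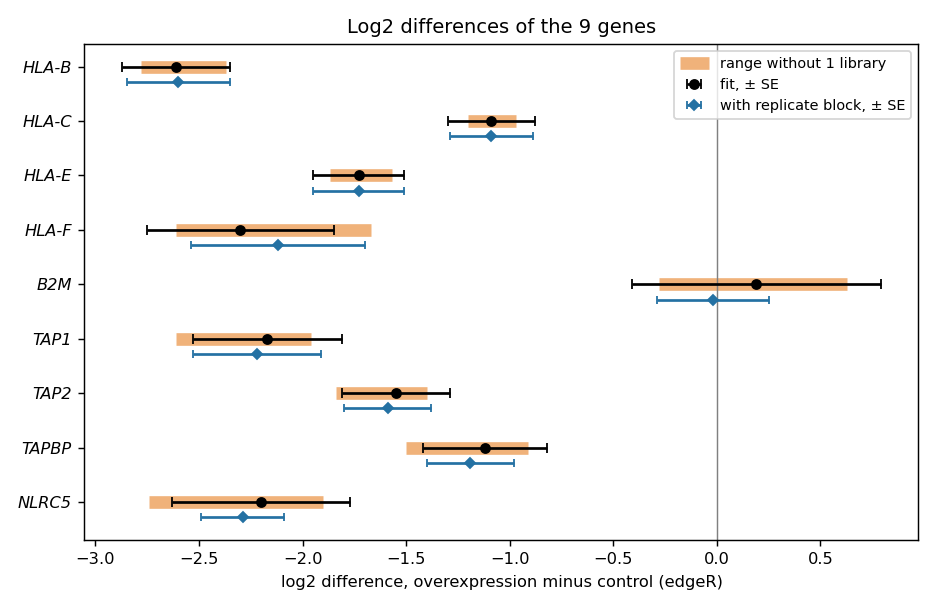
Log2 difference between libraries labelled overexpression and controls (horizontal axis) for the 9 genes, with the fit and its SE (black), the fit with the replicate block and its SE (blue), and the range over 6 fits that each leave out 1 library (orange). HLA-B lies lowest at -2.61, B2M at 0.19 with a range that crosses 0, and the other 7 genes between -2.30 and -1.09.

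Levels per kb can be set between genes only roughly, since neither length used here is that of a transcript. CPM was divided by the length behind the authors' FPKM, in kb, which for most genes sums distinct annotated exons. Overlapping exons count more than once in it, so the order of genes depends on the annotation. In the controls HLA-E (91.7 ± 18 CPM per kb) and TAP1 (75.9 ± 19.9) were highest (SD, n = 3), with overlapping library ranges. TAPBP (31.5 ± 3.89) and TAP2 (26.3 ± 2.80) came next, overlapping each other and apart from TAP1. HLA-B (17.7 ± 4.69), HLA-C (13.8 ± 2.24) and B2M (11.3 ± 5.11) each overlapped their neighbour, B2M and NLRC5 (6.53 ± 2.27) overlapped too, and HLA-F (2.65 ± 1.67) was apart at the bottom.

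In the libraries labelled overexpression the top 6 levels per kb ran from HLA-E (27.6 ± 4.26) through TAP1 (16.9 ± 7.75), TAPBP (14.5 ± 5.91), B2M (12.8 ± 8.36) and TAP2 (8.97 ± 2.88) to HLA-C (6.49 ± 0.908), each overlapping the next. HLA-B (2.90 ± 0.573), NLRC5 (1.42 ± 0.778) and HLA-F (0.537 ± 0.0724) followed, each apart from the one above. For B2M this length was 12755 bases against 6079 in the union of annotated exons, and for HLA-C 6232 against 2507. With the union, B2M took the second place and not the fourth in the libraries labelled overexpression, TAP1 the fourth and not the second, and the order of the 9 genes in the controls was the same.

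**Figure D3:**
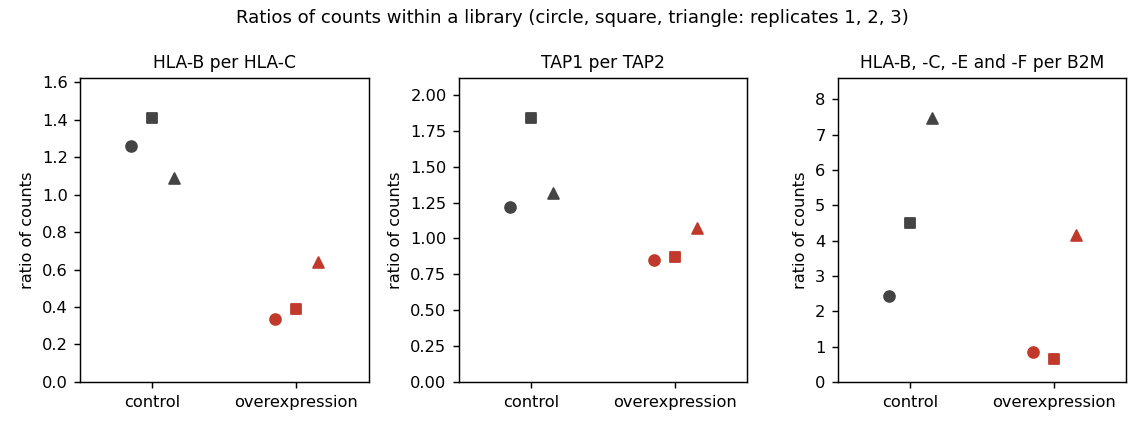
Ratios of counts within each library (vertical axes from 0), for 3 control libraries (grey) and 3 libraries labelled overexpression (red). HLA-B per HLA-C is 1.09 to 1.41 in the controls and 0.337 to 0.64 in the other group, TAP1 per TAP2 is also apart, and the heavy chains per B2M overlap between groups through overexpression 3 at 4.16.

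The lists of partner genes, other HLA genes and MHC region neighbours were likewise written with earlier results known. Together they hold 259 genes, 169 of them tested. Of the 169, 99 are in the region list only, taken for their position and not as partners. In edgeR 0 of the 169 passed in either direction, while 28 (16.6%) had an unadjusted p under 0.05, beside 6.49% of all genes tested. With the replicate block 3 were called lower, beside 0.441% of all genes, and DESeq2 called 14 lower, beside 1.57%. Of these calls, 1 and 4 were genes of the region list only. The immunoproteasome and its activator cut proteins into class I peptides. Of their 5 genes, 5 had all libraries labelled overexpression below the controls, beside 7.52% of all genes tested. Their median log2 difference was -1.72. PSMB9 stood at 14.1 ± 8.30 against 91.1 ± 50.6 CPM, a log2 difference of -2.69 (SE 0.52), and PSMB8 at 40.5 ± 11.8 against 133.5 ± 30.6 CPM, a log2 difference of -1.72 (SE 0.28). PSMB10 and PSME2, the latter an activator subunit, lay at -1.89 and -1.12. The constitutive subunits PSMB5, PSMB6 and PSMB7 lay at 0.02, -0.31 and 0.01, and PSME3 at 0.03, and the difference between these lists was not tested.

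Signalling genes towards class I were mixed. Of 14 genes, 6 had all libraries labelled overexpression below the controls and 1 above, beside 7.52% and 6.04% of all genes, with a median of -0.29. IRF1, a transcription factor that binds the NLRC5 and class I promoters, stood at 70.2, 55.3 and 86.2 CPM against 186.3, 225.2 and 300.2 CPM (log2 difference -1.75, SE 0.26, edgeR adjusted p 0.0668, and 0.0362 with the replicate block). STAT2, a signal transducer of type I and III interferon, lay at -1.88 (edgeR adjusted p 0.295, and 0.0367 with the replicate block), and IRF2 at -1.22. The DNA-binding partners of NLRC5 had a median of 0.13 over 8 genes, with RFX5 at -0.38, RFXAP at 0.33, NFYB at 0.45 and CREB1 at 0.74. CREB1 was 0.03 without overexpression 1.

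The chaperones of the endoplasmic reticulum had a median of -0.13 over 6 genes, and peptide trimming one of -0.34 over 6. Here the tapasin-related TAPBPL lay at -1.40 (SE 0.42), at 4.20 ± 2.47 against 11.2 ± 2.51 CPM. The general chaperones of class I folding were closer to 0, with CALR at -0.39, PDIA3 at -0.19 and CANX at 0.45. Of the peptide-trimming aminopeptidases, ERAP1 lay at -0.72 and ERAP2 at -1.15, while the cytosolic peptidases THOP1 and TPP2 lay at -0.49 and 0.34. Genes of Polycomb repressive complex 2 and of class I turnover had a median of 0.07 over 9 genes, with EED at -0.26, SUSD6 at 0.25, WWP2 at -0.29 and MARCHF4 at 0.25.

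The class I-like molecules, many of them stress ligands of natural killer cells, had a median of -0.19 over 12 genes tested of 14. RAET1L and MICB lay at -1.02 and -0.93, PROCR at -0.88 and ULBP1 at 0.76. Of 15 genes of class II presentation, 4 passed the filter on low counts: IFI30 at -1.91, CD74 at -1.65, CTSS at -0.95 and HLA-DMA at -0.56. CD74 was -3.62 without overexpression 3 (edgeR adjusted p 0.0877), and CTSS was -0.49 without control 2. HLA-DRA had 0 to 4 counts in each library. CIITA, the class II counterpart of NLRC5, had 0, 1 and 10 counts in the libraries labelled overexpression 1, 2 and 3 and 8, 11 and 21 in the controls. HLA-G had 0 counts in all 6 libraries. The pseudogene HLA-H lay at -1.04 (0.970 ± 0.303 against 1.99 ± 0.892 CPM), and HLA-L had at most 5 counts and HLA-F-AS1 at most 9 in a library.

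**Figure D4:**
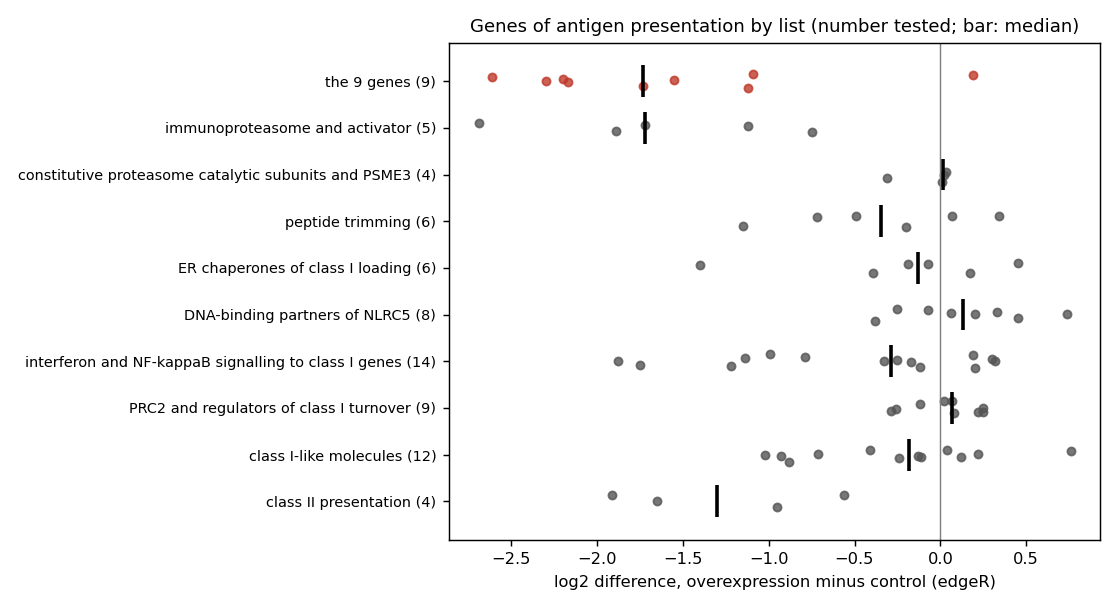
Log2 differences (horizontal axis) of the 9 genes (red) and of tested genes in 9 lists of partner genes (grey), with the number tested and a bar at the median of each. The immunoproteasome list lies wholly below 0 with a median of -1.72, while the constitutive subunits with PSME3 lie between -0.31 and 0.03.

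Of the 9 genes, 7 lie in the MHC region of chromosome 6. Other protein-coding genes there, between 29 and 34 Mb of GRCh38, served as neighbours. Of 103 tested, 0 passed in edgeR in either direction and 11 (10.7%) had an unadjusted p under 0.05, beside 6.49% of all genes. DESeq2 called 6 of the 103 lower, beside 1.57% of all genes. Of the 103, 20 had all libraries labelled overexpression below the controls and 0 above, beside 7.52% and 6.04% of all genes. The median log2 difference was -0.22 against 0.01 over all genes tested. The 99 that belong to no other list had a median of -0.21, and 78 of them, 78.8%, had a lower fitted level, beside 49.3% of all genes tested. The most abundant neighbours lay at -0.31 for TUBB, -0.15 for CLIC1, 0.31 for ITPR3, -0.45 for RPS18 and -0.66 for HSPA1A. All 5 values moved by over 1.5 times when some single library was left out: TUBB was -0.84 without overexpression 3, ITPR3 0.54 without overexpression 3, HSPA1A was -2.22 without overexpression 3 (edgeR adjusted p 0.0218) and -1.30 with the replicate block, RPS18 was 0.00 without control 2, and CLIC1 was 0.07 without control 2. With the replicate block 1 neighbour was called lower, beside 0.441% of all genes. It was AL645922.1, with 1 count over the libraries labelled overexpression and 24, 32 and 20 in the controls.

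**Figure D5:**
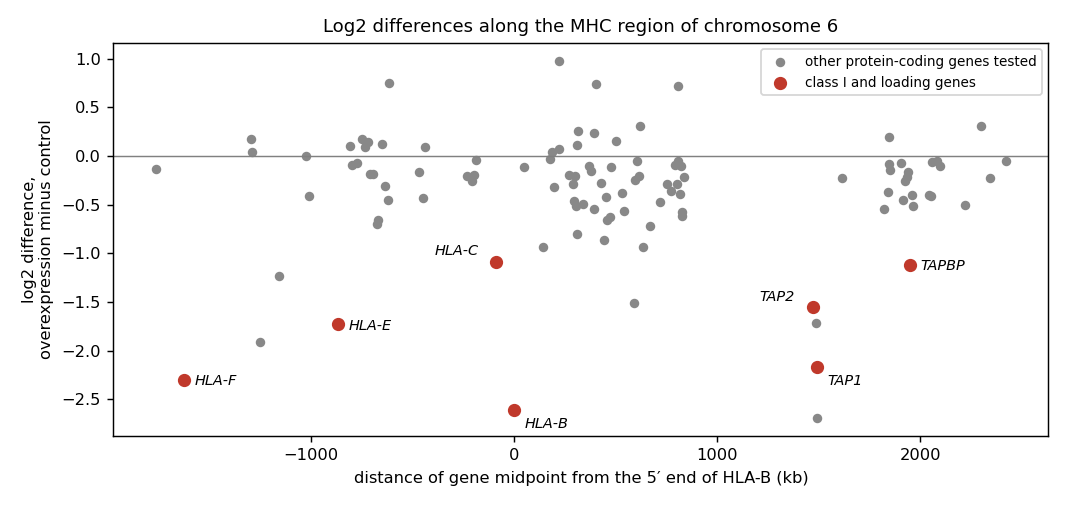
Log2 differences (vertical axis) of 7 class I and loading genes (red) and 101 other protein-coding genes (grey) by distance of the gene midpoint from the 5′ end of HLA-B, in kb (horizontal axis, HLA-B drawn at 0). Most neighbours lie near 0 around a median of -0.22, and 2 neighbours with 3 or fewer counts in a group are not drawn.

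The genes most like the mean profile of the 9 over the 6 libraries were IFNL2, PIK3AP1, ISG20, NAPA and SCAMP1-AS1, with Pearson r of 0.996, 0.995, 0.992, 0.992 and 0.99 on log2 CPM. The libraries fall into 2 groups, so that r mostly reflects the group difference, and it is given as a measure of likeness with no test. HLA-B and HLA-E had r of 0.998 and 0.997 with this mean, of which they are part, and B2M -0.058. NAPA, a vesicle fusion factor, stood at 78.0, 83.1 and 95.2 CPM against 147.2, 184.2 and 169.4 CPM (log2 difference -0.97). SCAMP1-AS1, an antisense RNA, lay at -0.73, and ISG20, an exonuclease, at -3.01. IFNL2 is near-identical to IFNL3, which makes its counts uncertain.

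Calls among the 9 genes depended on single libraries and on the tool. Without overexpression 3 there were 6 lower (HLA-B, HLA-E, TAP1, TAP2, TAPBP and NLRC5), beside 0.902% of genes, and without control 1 only HLA-B, beside 0.118%. Without overexpression 1 edgeR called 0 of the 9, beside 0.00627%, and without overexpression 2, control 2 or control 3 it called 0 of all genes. With the filter of 50 counts in 3 libraries the same 2 genes were called, beside 0.152%. DESeq2 called 8, all but B2M, beside 1.57%.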

How the data were processed

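RNA sequencing of 6 A549 libraries was analysed, 3 labelled SNHG5 overexpression and 3 control. The submitters' processing notes name HISAT2, FastQC and the build GRCh38, without versions. How strand and multi-mapping reads were handled, and by which counter, is not given in the sources used here. Per gene, the authors deposited counts in whole numbers and FPKM values. Counts were tested as deposited, and FPKM served only to work out the gene length behind each deposited value. That length equalled the summed distinct exons of GENCODE release 29 for 92.1% of the 12850 genes that reached 20 counts in all 6 libraries, within 0.01%. Of the gene identifiers 99.5% were found there.

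edgeR 4.0.16 in R 4.3.3 was run with TMM factors, filterByExpr (15631 genes) and the robust quasi-likelihood test, two-sided, with Benjamini-Hochberg adjustment over all genes tested and a threshold of 0.05. The common coefficient of variation was 30.8%. SE is the log2 difference divided by the square root of F. The step was tested on simulated counts. Log2 CPM used a prior count of 2. Within-group chi-square per degree of freedom was 26.2 to 94.5, so no library was a copy. Libraries with the same replicate number deviated together from their group means (correlations 0.35, 0.16 and 0.29). Those with unlike numbers ran from -0.34 to 0.12, the highest being overexpression 2 with control 1, so pairing is uncertain. The labels state no paired design, so the main fit had no block and the replicate block was an alternative. The labels call replicates biological without saying what was separate, so p-values measure the spread between these libraries.

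The members and lists were chosen with earlier results of these data known. Named were the 9 members, SNHG5, up to 4 genes per list with the largest difference, the 4 other HLA genes with most counts, the 5 most abundant region neighbours, genes past the threshold, and the 5 genes (mean log2 CPM of at least 2, no clone names or pseudogenes) most like the members. Of the genes that this rule takes, 2 are not reported here. CIITA, HLA-DRA, HLA-G and AL645922.1 were named after their values were seen. Alternatives were the replicate block, other size factors, DESeq2 1.42.0, no filter, a filter of 50 counts in 3 libraries, and leaving out each library.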

Additional observations from a re-analysis of the deposited data

How the results depend on the processing

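Of the 99 values of the 9 genes under 11 alternatives, 76 gave the same verdict as reported, calls were lost in 9 and gained in 14, and 0 called values reversed. In 3 the uncalled B2M turned in sign. The 48 other named genes gave 523 values, with the same verdict in 491, a lost call in 12, a gained call in 20 and 0 reversals. SNHG5 kept its direction and stayed uncalled in all 11 alternatives.

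Members called lower numbered 2, against 4 with the replicate block, 8 with DESeq2 and 4 with no filter (HLA-B, HLA-E, TAP1 and TAP2, beside 0.251% of genes), and 0 to 6 in the fits that leave out 1 library. Genes of the lists called lower, region neighbours included, numbered 0, against 3 with the replicate block, 14 with DESeq2, 4 with no filter and 0 to 7 without 1 library. Over all genes 16 were lower, against 69 with the block, 246 with DESeq2, 72 with no filter and 0 to 144 without 1 library. Over all genes 4 were higher, against 20 with DESeq2 and 0 to 20 without 1 library. The replicate block changed no call of a named gene other than those of TAP2, NLRC5, IRF1, STAT2 and AL645922.1. Causes of these shifts were not tested. Depth set a floor of 0.176 to 0.224 CPM, far below the least abundant of the 9 genes, HLA-F.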
